A study of Mus musculus with 27 samples.

Results

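Hepatocyte identity is held by a small set of transcription factors, and 9 of them were followed across the livers of this study: the nuclear receptors Hnf4a and Nr5a2, the forkhead factors Foxa1, Foxa2 and Foxa3, the cut-homeodomain factor Onecut1 (HNF6), the leucine-zipper factors Cebpa and Cebpb, and the homeobox factor Prox1. They were taken by symbol from the count table, where each held 1 row, and make up 9 of 23191 gene symbols. All 9 passed the filter on low counts in every comparison.

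The samples were livers of 27 male C57BL/6J mice, of which control mice and their HGFAC-KO littermates ate either chow or a diet rich in fat and sucrose (HF/HS), begun at 8 weeks of age and kept for 4 weeks. The groups held 7 control mice on chow, 6 KO mice on chow, 7 control mice on HF/HS diet and 7 KO mice on HF/HS diet. HGFAC is a serine protease that hepatocytes secrete and that activates hepatocyte growth factor; the KO was a whole-body CRISPR deletion that took exon 2 whole and part of exon 1, so it was present in every tissue and not only in the liver. RNA came from frozen liver tissue with all its cell types, so that for any gene fewer expressing cells and less RNA per cell cannot be told apart.

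In the mature liver these factors bind one another's regulatory regions and form a cross-regulating network. FOXA proteins open closed chromatin, HNF4A and HNF6 act with them at hepatocyte enhancers, and C/EBPα drives metabolic genes, whereas C/EBPβ is raised by cytokines, glucagon and glucocorticoids. NR5A2 (LRH-1) governs bile acid and cholesterol genes, and PROX1 is a corepressor of HNF4A and NR5A2 that also marks lymphatic endothelium.

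The windows upstream of the start sites are shown for Foxa1, Foxa2 and Onecut1, whose levels rose and fell together between mice, and for the liver-used downstream start of Hnf4a. Each is the 250 bases before a RefSeq start on GRCm38.p6, read 5′ to 3′ on the gene's own strand. They lie at chr12:57546112-57546361 (minus strand) for Foxa1, chr2:148046970-148047219 (minus strand) for the first start of Foxa2, chr9:74861671-74861920 (plus strand) for Onecut1 and chr2:163546905-163547154 (plus strand) for Hnf4a. Capitals mark matches, on either strand, to the motifs searched.
Foxa1: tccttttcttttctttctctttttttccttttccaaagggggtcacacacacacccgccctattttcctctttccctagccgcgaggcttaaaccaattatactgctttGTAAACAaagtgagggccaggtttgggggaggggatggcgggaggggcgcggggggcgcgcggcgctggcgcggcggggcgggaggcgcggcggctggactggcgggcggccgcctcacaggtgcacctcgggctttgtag
Foxa2: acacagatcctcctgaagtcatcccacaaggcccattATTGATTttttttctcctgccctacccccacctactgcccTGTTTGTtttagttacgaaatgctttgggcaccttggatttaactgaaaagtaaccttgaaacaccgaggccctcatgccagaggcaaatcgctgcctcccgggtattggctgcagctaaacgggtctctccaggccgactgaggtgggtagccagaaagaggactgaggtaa
Onecut1: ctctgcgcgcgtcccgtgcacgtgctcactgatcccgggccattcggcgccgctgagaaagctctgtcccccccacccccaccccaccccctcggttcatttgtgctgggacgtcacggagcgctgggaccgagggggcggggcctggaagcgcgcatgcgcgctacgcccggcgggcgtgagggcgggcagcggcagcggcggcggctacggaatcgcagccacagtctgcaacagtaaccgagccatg
Hnf4a: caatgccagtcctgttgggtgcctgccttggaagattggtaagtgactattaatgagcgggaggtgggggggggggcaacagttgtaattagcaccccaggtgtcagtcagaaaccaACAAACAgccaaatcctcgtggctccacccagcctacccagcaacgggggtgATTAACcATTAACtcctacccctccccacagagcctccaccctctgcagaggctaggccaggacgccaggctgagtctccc

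The FOXA motif was searched as TGTTTAC, with TGTTTGC as another form, with TGTTTGT as another form and with TGTTTAT as another form. For HNF6 the letters were ATTGATT, with ATTGACT as the other form. The motif was TTGCNNAA for C/EBP, CAAGGNCA for NR5A2 and GTTAAT for the shorter HNF1 site. For HNF4 it was CAAAGTCCA, with CAAAGTTCA as the other form. The Foxa1 window held 1 FOXA match, 141 to 135 bases before the start. The Foxa2 window held an HNF6 match at 213 to 207 bases and a FOXA match at 173 to 167 bases before its start. The Hnf4a window held a FOXA match at 133 to 127 bases and a pair of HNF1 sites between 81 and 69 bases before its start. None of the 6 motif sets matched in the Onecut1 window. No matches overlapped.

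Among all 14 windows of the 9 factors, 4 held a FOXA match, against 15.7% of the 32851 windows of all genes. HNF6 matches stood in 3 of the 14 and in 4.16% of all windows, those of C/EBP in 1 and in 9.56%, and the HNF1 site in 3 and in 6.43%. The NR5A2 and HNF4 motifs matched in 0 of the 14, against 5.53% and 0.715% of all windows. These are matches of letters near a start, and say nothing of binding.

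The libraries held 36056177 to 57298657 counts each, of which 4.13 to 12.1% fell on rows without a gene symbol. Hgfac, measured at 201 ± 12.8 CPM (counts scaled to library size) in control mice on chow (SD, n = 7), fell to 75.2 ± 8.27 CPM in KO mice on chow (n = 6) and from 271 ± 15.5 to 91.8 ± 7.94 CPM on HF/HS diet (n = 7 each), with no overlap between genotypes on either diet. Hepatocyte markers stood high in all livers (summed 64521 to 102383 CPM), and Alb accounted for most of that sum.

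Per length, the 9 factors fell into tiers. Levels in CPM, with library sizes scaled by TMM, were divided by the summed exon length in GENCODE M21 to give CPM per kb. Over the 27 mice, Cebpa (202 ± 24.2 CPM per kb, SD, n = 27) and Hnf4a (194 ± 22.1) were the highest, and their order was not fixed: Cebpa was above Hnf4a in 17 of 27 mice, the ranges overlapped in each group, and the order turned in KO mice on HF/HS diet. Cebpb (65.4 ± 25.2) and Foxa3 (46.9 ± 8.68) came next, with Cebpb above Foxa3 in 23 mice. Hnf4a was above Cebpb, and Foxa3 above Foxa2, in 27 of 27 mice.

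The lower tier held Foxa2 (11.0 ± 3.24 CPM per kb), Nr5a2 (8.91 ± 0.675), Foxa1 (8.17 ± 1.54), Prox1 (7.74 ± 1.86) and Onecut1 (5.27 ± 2.56). Neighbours in this order overlapped over the 27 mice, and Foxa1 was above Prox1 in 14. Within a group, Foxa2 stood clear of Nr5a2 in KO mice on chow. With the longest transcript as the length, Hnf4a and Cebpa changed places and the other 7 ranks held. Foxa3 was thus the most abundant FOXA transcript per length in each of the 27 livers.

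**Figure D1:**
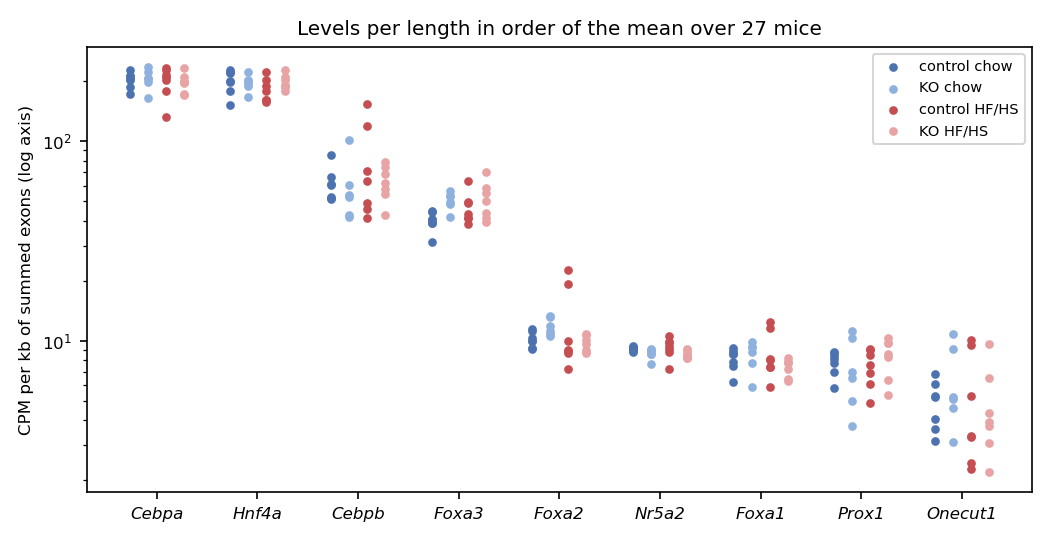
Level of each factor in CPM per kb of summed exons (log axis) in each of 27 livers, coloured by group and ordered by the mean. Cebpa and Hnf4a share the top, Cebpb and Foxa3 form a middle tier, and the other 5 lie lower with overlapping ranges.

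Few members of the set passed a test for diet or genotype. In control mice, HF/HS diet changed 1424 of 13525 genes tested (10.5%, edgeR quasi-likelihood test, adjusted p under 0.05) and 0 of the 9 factors, of which 1, Foxa3, had an unadjusted p under 0.05, as had 3433 of the 13525 genes. In KO mice, the diet changed 802 of 13613 genes (5.89%) and 1 of the 9, Foxa2. Over both genotypes the diet changed 3274 of 13932 genes (23.5%) and 0 of the 9, also 0 at an unadjusted p under 0.05, where 4994 of the 13932 genes stood. The genotype changed 1 of 13571 genes on chow (0.00737%, Hgfac itself), 2 of 13544 on HF/HS diet (0.0148%) and 14 of 13932 over both diets (0.1%), with 0 factors among them. The median log2 fold change of the 9 was 0.08 for diet in control mice, -0.01 for diet in KO mice, 0.03 for genotype on chow and -0.11 for genotype on HF/HS diet, where that of all genes lay at 0.00 in each of the 4.

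The difference of the diet effect between genotypes was called for 0 of 13932 genes (0%), with 506 at an unadjusted p under 0.05, Foxa2 among them, and for 0 by DESeq2 or limma voom. In none of the 36 comparisons of a factor between a pair of groups were the groups without overlap. Groups without overlap were seen for 3.44% of all genes for diet in control mice, 2.96% for diet in KO mice, 0.136% for genotype on chow and 0.0861% for genotype on HF/HS diet. Exact two-sided permutation tests of log2 CPM gave p under 0.05, unadjusted, in 4 of the 36, where the smallest p the design allows is 0.000583. Of these 4, 3 were for genotype on chow, where edgeR gave 812 of 13571 genes, and 2 of the 9 factors, an unadjusted p under 0.05.

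**Figure D2:**
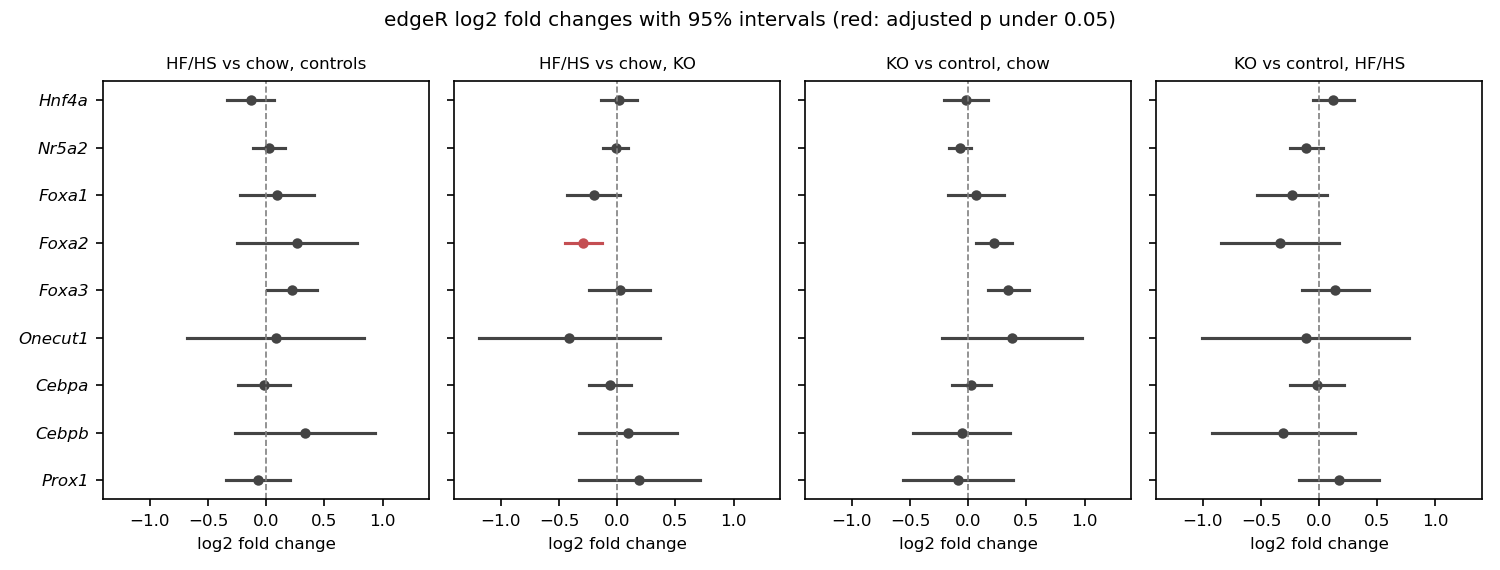
Log2 fold change of each factor (points) with its 95% interval (bars) in the 4 comparisons, from edgeR fits across all genes. Only Foxa2 in KO mice, at -0.29, is past the adjusted threshold, and intervals are widest for Onecut1 and narrowest for Nr5a2.

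HNF4A (gene at chr2:163506808-163572910 on GRCm38) is the nuclear receptor that most broadly holds the hepatocyte programme. Hnf4a ranged from 736 (lowest) through 963 (median) to 1106 CPM (highest) in control mice on chow and from 808 through 952 to 1072 CPM in KO mice on chow. With the HF/HS diet it ranged from 765 through 865 to 1074 CPM in control mice and from 866 through 925 to 1094 CPM in KO mice. The 4 ranges overlapped, although 4 of 7 control mice on HF/HS diet lay below every KO mouse on that diet (log2 fold change for genotype 0.12, SE 0.08, adjusted p = 0.657, edgeR). On chow the genotype value was -0.02 (SE 0.09). The fold on HF/HS diet against chow was 0.911 in control mice (95% interval 0.791 to 1.05, adjusted p = 0.411, edgeR) and 1.01 in KO mice (0.908 to 1.12, adjusted p = 0.933). Falls in control mice beyond a fold of 0.791 thus lay outside the interval.

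Nr5a2, at chr1:136842571-136960448, was the steadiest of the set. Nr5a2 spanned 51.8 through 53.8 to 55.4 CPM in control mice on chow and 45.2 through 51.7 to 54.01 CPM in KO mice on chow. It spanned 42.7 through 55.5 to 62.3 CPM in control mice on HF/HS diet and 48.2 through 49.8 to 53.9 CPM in KO mice. Its spread within groups was an SD of 0.11 on the log2 scale, smaller than that of all but 16.9% of genes tested. On chow, values in KO mice were lower before adjustment: 3 of 6 KO mice on chow lay below every control mouse (log2 difference -0.08, exact permutation p = 0.0280). The edgeR value there was -0.07 (SE 0.04, unadjusted p = 0.130, adjusted p = 0.822), and lay between -0.09 and -0.04 with 1 mouse left out. On HF/HS diet the exact permutation p was 0.173, and over both diets the log2 fold change was -0.09 (SE 0.04, p = 0.0316, adjusted p = 0.339 by edgeR), which did not pass the threshold. HF/HS diet moved it by a fold of 1.00 over both genotypes (95% interval 0.947 to 1.06).

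FOXA1 (gene at chr12:57540628-57546916) and FOXA2 (chr2:148042877-148046969) are pioneer factors with overlapping roles in liver specification. Foxa1 ran from 20.7 through 28.7 to 30.8 CPM in control mice and from 19.5 through 30.1 to 33.0 CPM in KO mice on chow. On HF/HS diet it ran from 19.6 through 26.8 to 41.2 CPM in control mice and from 20.98 through 25.8 to 27.5 CPM in KO mice. Control mice on HF/HS diet thus had the widest range. In KO mice the diet gave a log2 fold change of -0.20 (SE 0.11, adjusted p = 0.279, edgeR), which passed the threshold only when KO mouse 1 on chow was left out (-0.29, adjusted p = 0.0401).

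Foxa2 was the factor with a called change. KO mice on chow lay at 25.0 (lowest), 27.4 (median) and 31.7 CPM (highest) and KO mice on HF/HS diet at 20.7, 22.9 and 25.6 CPM. Of the 6 KO mice on chow, 5 stood above every KO mouse on HF/HS diet, and 5 of the 7 on HF/HS diet stood below every KO mouse on chow. Foxa2 fell by 0.29 on the log2 scale (SE 0.08, adjusted p = 0.0329 by edgeR, exact permutation p = 0.00466), a fold of 0.817 (95% interval 0.731 to 0.912). The call was lost when all 27 mice were fitted together (adjusted p = 0.363) and when any 1 of KO mice 2, 5 or 6 on chow or KO mice 1 or 4 on HF/HS diet was left out (adjusted p = 0.0580 to 0.0741).

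In control mice the change of Foxa2 did not pass the test. Their levels were 21.5, 23.8 and 27.1 CPM on chow and 17.1, 21.5 and 53.9 CPM on HF/HS diet. In the latter group 2 mice, numbered 2 and 3, reached 45.8 and 53.9 CPM, whereas the other 5 lay between 17.1 and 23.7 CPM, 4 of them below every control mouse on chow. The log2 fold change in control mice was 0.27 (SE 0.24, adjusted p = 0.539, edgeR), with leave-one-out values from 0.05 to 0.36. The test of the difference between genotypes gave -0.56 (SE 0.26, unadjusted p = 0.0441, adjusted p = 0.984, edgeR), so a difference in the diet effect was not shown.

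On chow, Foxa2 was higher in KO than in control mice before adjustment. The log2 fold change was 0.22 (SE 0.07, p = 0.00776, adjusted p = 0.801 by edgeR, exact permutation p = 0.0204), and 3 of 6 KO mice lay above every control mouse. On HF/HS diet the value was -0.34 (SE 0.24, adjusted p = 0.676), and between -0.43 and -0.12 with 1 mouse left out, nearest 0 without control mouse 3. The KO mice on chow therefore form the high side of 2 comparisons of Foxa2, which are not independent.

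FOXA3 (gene at chr7:19013284-19023538), a FOXA protein that is dispensable for liver formation, showed the largest genotype difference on chow relative to its error. Foxa3 lay at 63.8, 82.6 and 90.7 CPM in control mice and at 84.7, 105 and 115 CPM in KO mice on chow. Of the 6 KO mice, 5 stood above every control mouse. The fold was 1.27 (95% interval 1.12 to 1.43), with p = 0.000840, the 13th smallest of 13571 genes, and an adjusted p of 0.801 by edgeR (exact permutation p = 0.00291). DESeq2 called it (log2 fold change 0.34, adjusted p = 0.0235), while no other setting run did.

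On HF/HS diet the genotypes overlapped in Foxa3. Control mice lay at 78.3, 88.0 and 129 CPM and KO mice at 80.4, 102 and 143 CPM, and the log2 fold change was 0.14 (SE 0.13, adjusted p = 0.776, edgeR), or 0.05 without KO mouse 6 and 0.23 without control mouse 7. Over both diets the log2 fold change was 0.24 (SE 0.08, adjusted p = 0.227, edgeR), and the test of the difference between diets gave -0.20 (SE 0.17, adjusted p = 0.984). In control mice the diet gave 0.22 (SE 0.10, adjusted p = 0.188 by edgeR, exact permutation p = 0.0816), with 3 of 7 mice on HF/HS diet above every mouse on chow, and in KO mice 0.02 (SE 0.12).

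Onecut1 (chr9:74861921-74891781), which acts with FOXA2 in hepatobiliary development, was the most variable of the set. It lay at 12.99, 21.6 and 28.2 CPM in control mice and at 12.8, 21.4 and 44.5 CPM in KO mice on chow. On HF/HS diet it lay at 9.36, 13.7 and 41.7 CPM in control mice and at 9.05, 16.1 and 39.9 CPM in KO mice. The 27 livers thus spanned 4.92-fold, and the SD within groups, 0.69 on the log2 scale, exceeded that of 97.4% of genes tested. Folds for the diet of 1.06 (95% interval 0.623 to 1.80) in control mice and 0.752 (0.440 to 1.29) in KO mice were accordingly imprecise, and the log2 value in KO mice, -0.41, lay between -0.68 and -0.19 with 1 mouse left out. A lincRNA, Gm20649, shares 2171 exon bases with Onecut1 on the same strand, so that reads there are of uncertain origin.

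C/EBPα (gene at chr7:35119293-35121928), a driver of mature metabolic functions, showed no detectable difference between groups. Cebpa lay at 454, 541 and 599 CPM in control mice and 436, 546 and 619.9 CPM in KO mice on chow, and at 348, 553 and 618 CPM in control mice and 452, 519.9 and 613 CPM in KO mice on HF/HS diet. The 4 medians lay close together, and 1 control mouse on HF/HS diet was far below the rest. All 4 folds lay between 0.957 and 1.02, and the widest 95% interval, for genotype on HF/HS diet, ran from 0.841 to 1.16.

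C/EBPβ (gene at chr2:167688915-167690418), the inducible partner, varied more between mice than between groups. Cebpb lay at 77.5, 91.2 and 129 CPM in control mice and 62.9, 79.9 and 152 CPM in KO mice on chow. On HF/HS diet it lay at 62.3, 95.6 and 230.3 CPM in control mice and 64.6, 93.2 and 118 CPM in KO mice. Single livers stood out: control mice 1 and 7 on HF/HS diet at 181 and 230.3 CPM and KO mouse 4 on chow at 152 CPM. The fold for the diet was 1.26 in control mice (95% interval 0.831 to 1.92, adjusted p = 0.504, edgeR) and 1.07 in KO mice (0.797 to 1.43). On the log2 scale the value in control mice, 0.34, was 0.08 without control mouse 7 on HF/HS diet. Exons of Tmem189 overlap Cebpb by 312 bases on the opposite strand, and since the strand setting of the counting is not given in the sources used here, reads there cannot be assigned with certainty. Tmem189 held 16.6% as many counts as Cebpb.

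Prox1 (chr1:190118035-190170714), at 48.5, 68.0 and 73.6 CPM in control mice and 31.4, 56.8 and 94.3 CPM in KO mice on chow, showed no detectable difference either. Under HF/HS feeding it lay at 41.0, 63.5 and 76.3 CPM in control mice and at 44.9, 72.3 and 86.6 CPM in KO mice. KO mice on chow spanned the whole range of the other groups. The folds were 0.953 for diet in control mice (95% interval 0.787 to 1.15), 1.14 in KO mice (0.794 to 1.64), 0.943 for genotype on chow (0.680 to 1.31) and 1.12 on HF/HS diet (0.886 to 1.43). With 1 mouse left out, the log2 value for diet in KO mice, 0.19, lay between 0.05 and 0.36, and that for genotype on HF/HS diet, 0.17, between 0.09 and 0.25. Of the other lymphatic endothelial markers, Ccl21a was at 0 counts in all 27 livers, Pdpn and Mmrn1 were below 0.5 CPM in each group mean, and Flt4, which sinusoids also express, was at 19.4 to 25.7 CPM.

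**Figure D3:**
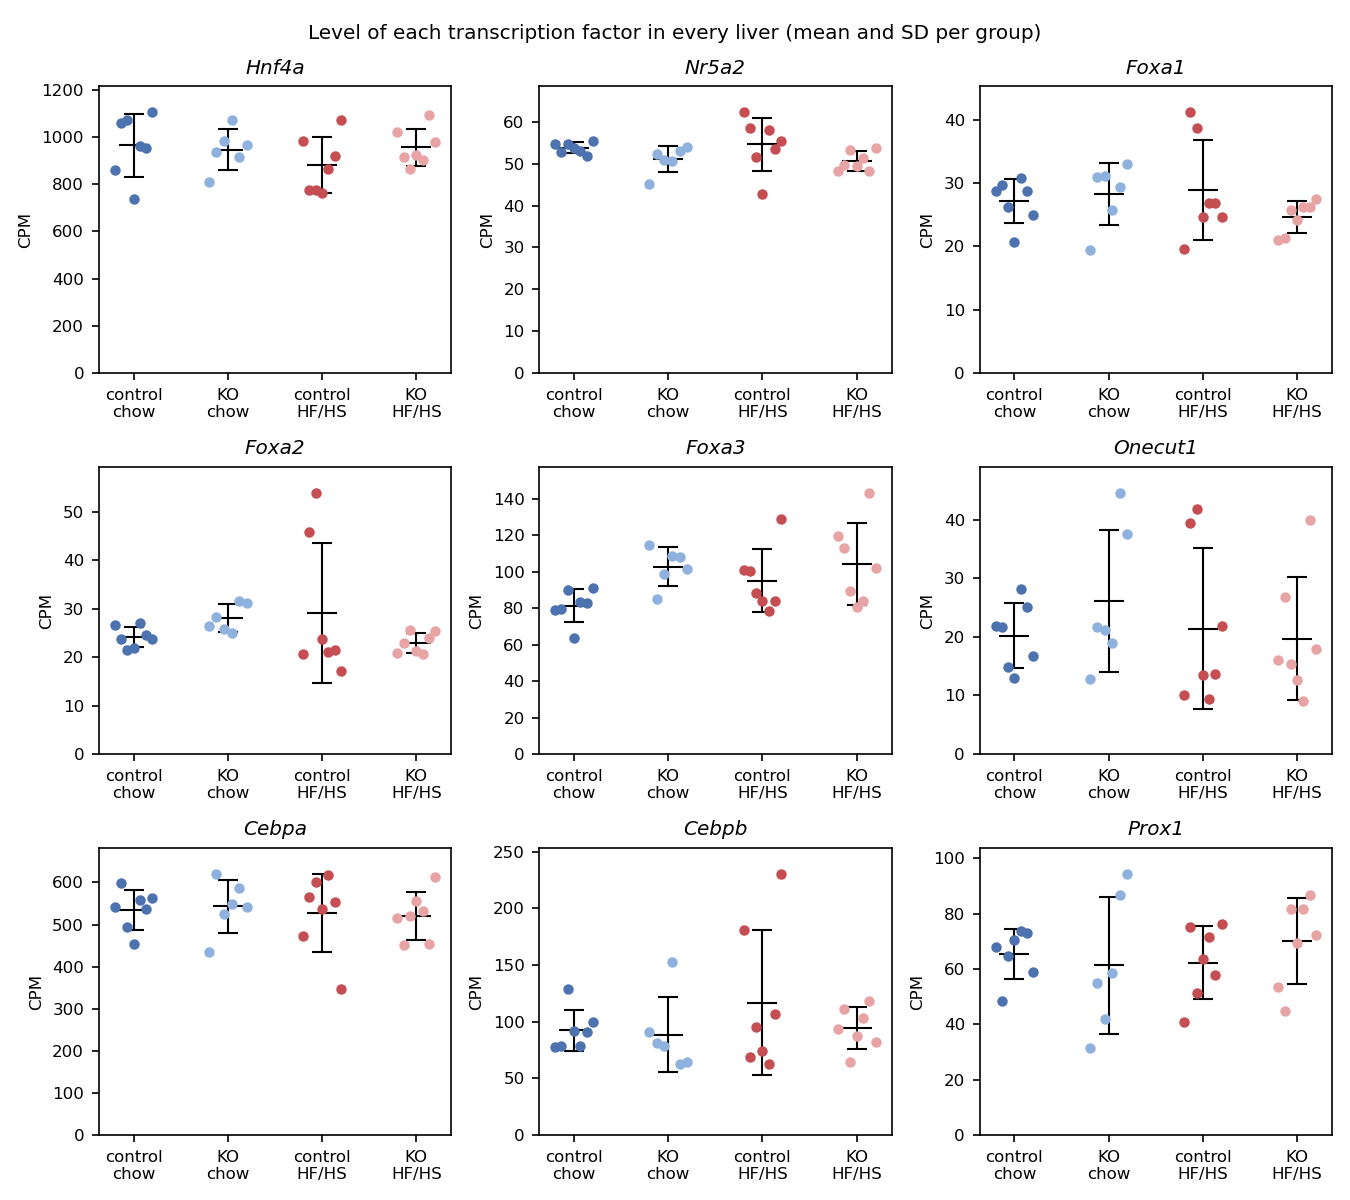
CPM of each factor in every liver (points), by group, with the group mean and SD (bars); each axis starts at 0. Most KO mice on chow lie above the control mice on chow in Foxa3 (5 of 6 above all), without passing the adjusted threshold, the 2 high control mice on HF/HS diet recur in Foxa1, Foxa2 and Onecut1, and a few livers are high in Cebpb.

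Between mice of the same group, the factors were not independent of one another. Pearson's r and Spearman's rho of log2 CPM were computed over the 27 mice for the 36 pairs after subtraction of group means, with permutation of mice within groups and adjustment over the 36. Of these, 6 pairs passed 0.05 by both measures, and 4 did so with upper-quartile scaling, where Hnf4a with Foxa3 (adjusted permutation p = 0.0680 by rho) and Foxa1 with Cebpa (0.0631 by r) were lost. A chain of 3 factors stood out: Foxa1 and Foxa2 (r = 0.74, rho = 0.69, adjusted permutation p = 0.0132 and 0.0140), Foxa2 and Onecut1 (r = 0.68, rho = 0.73, 0.0132 and 0.00324), and Foxa1 and Onecut1 (r = 0.66, rho = 0.56, 0.0132 and 0.0464). Without the 2 mice farthest from the median of the first gene, r was 0.79, 0.52 and 0.58.

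Within single groups the relations of the 3 factors varied. For Foxa2 and Onecut1 r was 0.87 in control mice on chow, 0.85 in KO mice on chow, 0.82 in control mice on HF/HS diet and 0.47 in KO mice on HF/HS diet. In control mice on HF/HS diet, mice 2 and 3 lay apart and set the sign of the relation: among the other 5, Onecut1 was highest (21.9 CPM) in the mouse with the lowest Foxa2 (17.1 CPM). Foxa1 and Onecut1 did not move together in KO mice on HF/HS diet (r = -0.10). Among 9455 genes with at least 5 CPM on average, Foxa1 was the third most correlated with Foxa2 (rank 3), and Onecut1 ranked 6 for Foxa2 and 11 for Foxa1.

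Cebpa and Cebpb ran in opposite directions. Over the 27 mice r was -0.67 and rho -0.58 (adjusted permutation p = 0.0178 and 0.0464), and r was -0.54 without the 2 farthest mice. The sign was negative in each of the 4 groups, from -0.18 in KO mice on chow to -0.88 in control mice on HF/HS diet. Control mouse 7 on HF/HS diet held both the lowest Cebpa (348 CPM) and the highest Cebpb (230.3 CPM) of all livers.

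Of the remaining pairs, Hnf4a rose with Foxa3 (r = 0.58, rho = 0.52, adjusted permutation p = 0.0132 and 0.0464) and Foxa1 with Cebpa (r = 0.58, rho = 0.55, 0.0379 and 0.0464, r = 0.49 without the 2 farthest mice). The first had r = 0.41 without the 2 farthest mice and was absent in KO mice on chow (r = -0.25). Cebpb and Hnf4a (r = 0.58, rho = 0.52) passed by Pearson's r but not by rho (adjusted permutation p = 0.0178 and 0.0634).

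**Figure D4:**
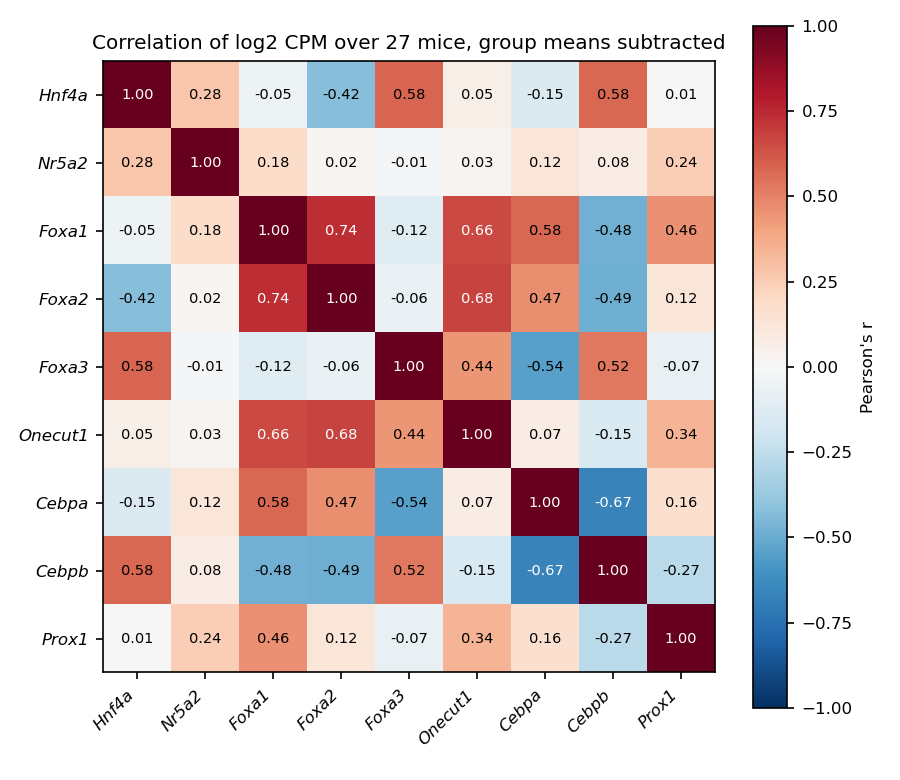
Pearson's r of log2 CPM between each pair of factors over 27 mice after subtraction of group means (colour scale from -1 to 1). Foxa1, Foxa2 and Onecut1 form a positive block, and Cebpb is negative with Cebpa (-0.67).

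The spread within groups set the precision of these comparisons. The SD within groups on the log2 scale was 0.17 for Hnf4a, 0.20 for Cebpa, 0.23 for Foxa3, 0.27 for Foxa1, 0.34 for Foxa2, 0.39 for Prox1 and 0.47 for Cebpb, against a median of 0.18 for all genes. Among genes within 2-fold of its level, Onecut1 exceeded 99.1%, Cebpb 98.3%, Prox1 97.6% and Foxa2 95.8% in spread. Nr5a2 exceeded only 35.1% of genes of like level. Onecut1, with the largest spread, also had the widest interval in each of the 4 comparisons.

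The variation of several factors tracked other programmes that differed between mice of a group. A mean log2 deviation was taken over 20 acute-phase genes and over 18 fasting and glucocorticoid response genes, as was the mean for long (at least 6000 bases) minus short transcripts (at most 1500 bases), and the share of counts on unnamed rows. These 4 were chosen after the values were seen, which gives 36 relations, of which 9 passed 0.05 by both r and rho. Cebpb rose with the acute-phase mean (r = 0.86, rho = 0.73, adjusted permutation p = 0.000360 and 0.00252, r = 0.74 without the 2 farthest mice), and 0.000360 is the smallest adjusted p these permutations can give. Its r was at least 0.69 in each of the 4 groups. Cebpa fell with the acute-phase mean (r = -0.68, rho = -0.65, 0.0270 and 0.0102, r = -0.61 without the 2 farthest), though not in KO mice on chow (r = 0.03).

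The acute-phase mean was highest in control mouse 7 on HF/HS diet (1.84) and KO mouse 4 on chow (1.24), and it was positive also in control mouse 3 on chow (0.51), in control mouse 1 on HF/HS diet (0.48) and in 3 KO mice on HF/HS diet. Every other mouse lay below 0. Livers with raised acute-phase genes were thus present in each of the 4 groups. Hnf4a (r = 0.55, rho = 0.54) and Foxa3 (r = 0.56, rho = 0.52) also rose with it, with adjusted permutation p of 0.0254 for both by r and of 0.0186 and 0.0227 by rho, and r was 0.36 and 0.45 without the 2 farthest mice. The part of this in the group comparisons was not tested.

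The fasting and glucocorticoid mean ran against the forkhead pair. It fell as Foxa2 (r = -0.58, rho = -0.60, adjusted permutation p = 0.0254 and 0.00996) and Foxa1 (r = -0.62, rho = -0.54, 0.0254 and 0.0284) rose, and it rose with Cebpb (r = 0.68, rho = 0.66, 0.0207 and 0.00792). Without the 2 farthest mice r was -0.53, -0.55 and 0.60. In KO mice on HF/HS diet Foxa1 did not follow this (r = 0.32). Onecut1 passed by rho (-0.52, 0.0284) and missed by r (-0.50, 0.0543). Control mouse 2 on HF/HS diet, high in Foxa1, Foxa2 and Onecut1, had the lowest mean of all livers (-0.45). Control mouse 3 on that diet, with the highest Foxa2 of all livers (53.9 CPM), had a mean of -0.12.

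Prox1 (r = 0.58, rho = 0.55) and Nr5a2 (r = 0.53, rho = 0.53) rose with the long-minus-short mean (adjusted permutation p of 0.0254 for both by r and of 0.0252 and 0.0227 by rho), with r = 0.42 and 0.49 without the 2 farthest mice. Their longest transcripts measure 7913 and 4733 bases. KO mouse 1 on chow had the lowest long-minus-short value (-0.36) and the lowest Prox1 (31.4 CPM). The median of these values was 0.083 in control and -0.114 in KO mice on chow, and 0.063 and 0.062 on HF/HS diet. On chow Nr5a2 was lower in KO mice before adjustment by the permutation test only. No factor was related to the share of counts on unnamed rows by both measures. What part transcript length has in these levels was not tested.

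**Figure D5:**
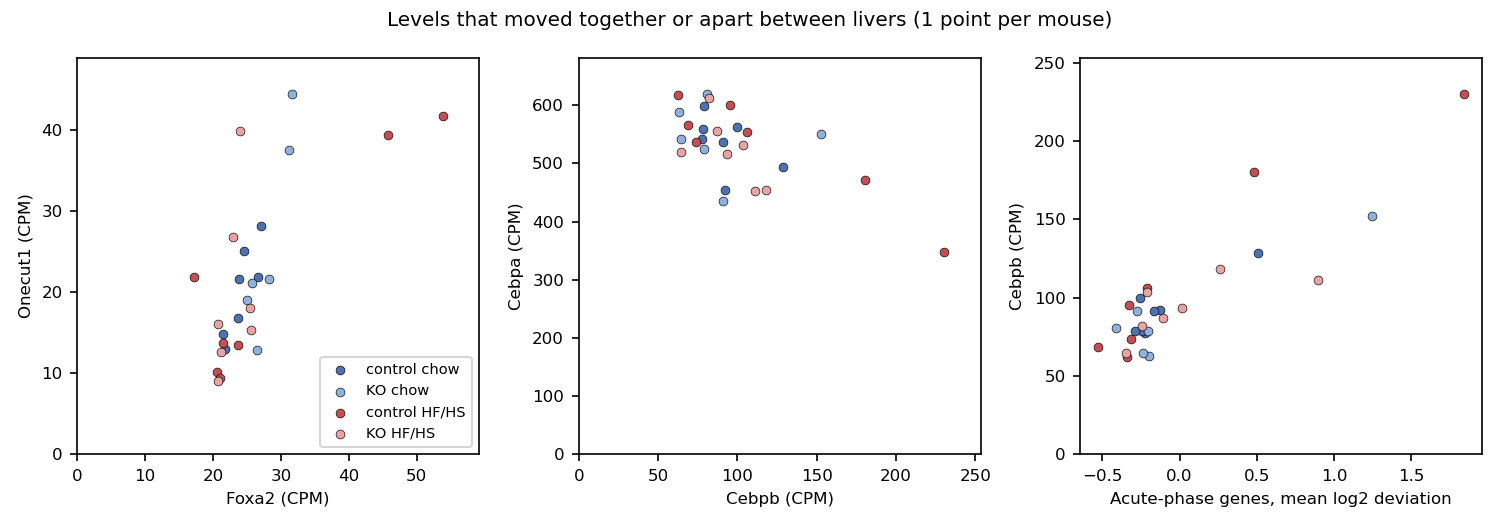
CPM of Onecut1 against Foxa2, of Cebpa against Cebpb, and of Cebpb against the mean log2 deviation of the acute-phase genes, with 1 point per mouse coloured by group. Onecut1 rises with Foxa2, Cebpa is lowest (348 CPM) where Cebpb is highest (230.3 CPM), and Cebpb rises with the acute-phase mean.

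Among genes other than the 9 factors, those most like each factor over the 27 mice (Pearson's r of log2 CPM, groups not subtracted, a description) differed between factors. Cebpb was followed most closely by Myd88, the adaptor of Toll-like and interleukin-1 receptors (r = 0.91), and Rnf114 (0.87). Prox1 was followed by Dicer1, which processes microRNAs (0.87), and Zzef1 (0.86), whose longest transcripts measure 9851 and 11306 bases. Cebpa was followed by Bcar3 (0.82) and Dclk3 (0.80), and Hnf4a by Mavs (0.80) and Rela, an NF-κB subunit (0.76).

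Among the forkhead factors, Foxa1 was most like Fzd7, a Wnt receptor (r = 0.81), and D630039A03Rik (0.74). Outside the 9, Foxa2 was most like Gpr108 (0.72) and Cish, a cytokine-induced feedback inhibitor (0.69), the latter with a Spearman's rho of only 0.22. Foxa3 was most like Pprc1 (0.81) and Id3 (0.75). Onecut1 had the lowest such values, with Snx7 (0.62) and Zfp516 (0.61), and Nr5a2 was followed by Pnpla8 (0.82) and Tax1bp1 (0.78).

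Target genes and other regulators of the network were read against the 23.5% of all genes called for diet. Over both genotypes, 8 of 30 HNF4A target genes were called (26.7%, of which 4 rose and 4 fell). Among them, Cyp2c29, a cytochrome P450 (-1.55, SE 0.12), and Ugt2b5, a glucuronidation enzyme (-0.56, SE 0.05), fell, while Pklr, liver pyruvate kinase, rose (0.70, SE 0.12). Apoa1, the apolipoprotein of HDL, rose by 0.16 (SE 0.05), also on the log2 scale, but its value in KO mice alone was -0.07 (SE 0.09). The interaction for Apoa1 was -0.46 (SE 0.10, unadjusted p = 0.000116, adjusted p = 0.980, edgeR), so a difference between genotypes was not shown. The list's median log2 fold change was 0.01, against 0.00 for all genes.

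Of 20 C/EBP target genes 6 were called (30.0%, of which 1 rose and 5 fell), with Tat, which breaks down tyrosine, at -0.63 (SE 0.12), Agt, the precursor of angiotensin, at -0.21 (SE 0.04) and G0s2, a lipase inhibitor, at -0.51 (SE 0.15). Of 14 NR5A2 target genes tested 7 were called (a share above that of all genes, of which 5 rose and 2 fell), with Sult2a8 at 0.44 (SE 0.07), the HDL receptor Scarb1 at 0.22 (SE 0.06) and Gls2, liver glutaminase, at -0.51 (SE 0.07). Of 15 FOXA and HNF6 target genes tested 5 were called (33.3%, of which 3 rose and 2 fell), with the glucose transporter Slc2a2 at 0.66 (SE 0.11), Cpt1a of fatty acid oxidation at 0.31 (SE 0.06) and the transferrin receptor Tfrc at -0.88 (SE 0.10). The lists share genes such as Apoa1 and Tat. Called targets went both ways in each list, and the lists' medians lay between -0.07 and 0.13.

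Other regulators were also called. Of 20 partner transcription factors 2 passed (a share below that of all genes), Klf6 (0.27, SE 0.10) and Zbtb20, a repressor of Afp (-0.21, SE 0.07). The fit of control mice called Gata6 (-0.29, SE 0.08), where a difference between genotypes was not shown (interaction 0.28, SE 0.15, adjusted p = 0.984, edgeR). Among 16 liver nuclear receptors 6 passed (37.5%), 5 of them higher, with Ppara, the fasting-responsive receptor of fatty acids, at 0.44 (SE 0.09), Nr1d1 (REV-ERBα) at 0.72 (SE 0.22), Nr1h3 (LXRα) at 0.10 (SE 0.03), and Esrra, which was lower (-0.36, SE 0.06). Of 12 coregulators Crebbp (0.31, SE 0.05) and Ep300 (0.20, SE 0.06), a pair of histone acetyltransferases, passed (16.7%).

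Fetal and dedifferentiation genes were called in 3 of 13 tested (23.1%), with Vnn1 (0.60, SE 0.10) and Tff3 (1.89, SE 0.49) higher and Krt23 (-0.60, SE 0.18) lower. Of the 13, 6 had values above 0 and 7 below, with a median of -0.10. Vnn1 already stood at a mean of 102 CPM in control mice on chow, where Afp was at 1.54 CPM. Acute-phase genes were called in 5 of 20 (a share close to that of all genes), each of the 5 higher, with Fgb at 0.38 (SE 0.07), and fasting and glucocorticoid response genes in 5 of 18 (27.8%, of which 2 rose and 3 fell), with Pdk4 at -0.95 (SE 0.18) and Fgf21 at 1.94 (SE 0.42). For genotype over both diets, 5 lists held a called gene: Alb (0.30, SE 0.05, adjusted p = 0.0304, edgeR), which stands in the C/EBP, the FOXA and HNF6 and the hepatocyte lists, Apom (0.23, SE 0.04, adjusted p = 0.0304) and Tff3 (2.49, SE 0.49, adjusted p = 0.0388), each higher in KO mice. Only 1 gene was called in that comparison when KO mouse 1 on chow was left out, against 14 with it. At least 2 of these 3 calls were thus lost. The count was 3 without KO mouse 3 on chow, control mouse 1 on HF/HS diet, or KO mouse 1 or 7 on HF/HS diet. It was as high as 66 without control mouse 7 on HF/HS diet.

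Markers of other liver cell types moved with diet beside these results. Macrophage markers were called higher on HF/HS diet in 4 of 7 (Clec4f, of Kupffer cells, 0.55, SE 0.10), sinusoidal endothelial markers in 4 of 6 (Stab2 0.38, SE 0.08), stellate cell markers in 3 of 7 (2 rose and 1, Lrat, fell), neutrophil markers in 2 of 2 tested (S100a8 1.30, SE 0.30) and lymphocyte markers in 1 of 5 (Ptprc 0.39, SE 0.13). Of the 7 macrophage markers 6 had values above 0, and Marco fell in control mice (means 12.8 to 5.60 CPM). Of the 6 sinusoidal markers 5 had values above 0, and Lyve1 fell in control mice (means 11.5 to 8.97 CPM). Hepatocyte markers were called in 0 of 6, cholangiocyte markers in 0 of 5 tested and lymphatic endothelial markers in 0 of 3 tested. In the latter 2 lists Krt19 (-0.31, adjusted p = 0.182, edgeR) and Flt4 (0.20, adjusted p = 0.220) had the smallest p. The hepatocyte marker Asgr1 was at 0.14 in the fit of control mice (adjusted p = 0.123, edgeR) and at -0.01 in that of KO mice. The summed macrophage markers ranged over 133 to 283 CPM in control and 124 to 189 CPM in KO mice on chow, and over 163 to 338 and 162 to 286 CPM on HF/HS diet. Beside the fall of Foxa2 in KO mice, 4 of 7 macrophage markers were called higher in the same comparison, namely Clec4f (0.65, SE 0.11), Cd68 (0.51, SE 0.09), Cd5l (0.68, SE 0.14) and Adgre1 (0.61, SE 0.15), as were Stab2 (0.42, SE 0.09) and Ptprc (0.63, SE 0.14). Of all genes 5.89% were called there. In the macrophage and sinusoidal lists only Marco (-0.07, SE 0.25) and Lyve1 (-0.05, SE 0.25) had values below 0. Of the 6 hepatocyte markers 0 were called there, 4 had values below 0 and 2 above, and their median was -0.04. For genotype on chow, values lay above 0 for 0 of 7 macrophage markers (median -0.24) and 1 of 6 sinusoidal markers (-0.21). They did so for 0 of 5 lymphocyte (-0.23), 5 of 5 cholangiocyte (0.17) and 5 of 6 hepatocyte markers (0.02). Of these lists 0 genes were called. The part of cell makeup in the fall of Foxa2, or in the chow differences of Foxa2 and Foxa3, was not tested.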

How the data were processed

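Liver mRNA of 27 mice was sequenced as stranded, paired-end libraries. Per the authors' methods, reads were aligned with HISAT2 to GRCm38/mm10 and counted with featureCounts 1.6.3. The deposited values are raw counts per gene. The annotation and strand setting are not given in the sources used here. Rows without a symbol (4.13 to 12.1% of counts) were left out, and rows of 1 symbol were summed. Genes were kept by filterByExpr (minimum count 10, total 15) and tested with edgeR 4.0.16 (TMM, robust quasi-likelihood, Benjamini-Hochberg over all genes tested), each comparison on its own mice, and those over both diets or genotypes and the interaction on 27 mice. The fit was tested on simulated data. Single levels were compared by two-sided exact permutation tests on log2 CPM (prior count 2). Correlations used 100000 permutations of mice within groups. Libraries held 36056177 to 57298657 counts, each factor had at least 393 counts in every library, and p-values judge differences against the spread between mice. DESeq2 1.42.0, limma voom and the other alternatives are in the closing section.

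The 9 factors and the 18 gene lists were chosen with earlier results of these data known, and the 4 means compared with the factors after their values were seen. Named genes were the factors, at most 4 genes per list past the threshold for diet in control mice or over both genotypes by smallest p, the 2 genes most like each factor, and Hgfac; 1 gene that this rule named is not reported here. Alb, Apom and the overlapping or further marker genes were named after their values were seen. Promoter windows came from RefSeq (GRCm38.p6), where all 9 symbols matched; gene lengths came from GENCODE M21.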

Additional observations from a re-analysis of the deposited data

Results flagged for a closer look

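Among the 36 sets of a factor in a group, 2 held a mouse far from the others of its group by Dixon's ratio, where chance alone gives about 1 in 20. Foxa3 in control mouse 4 on chow was low, at 63.8 CPM against 79.1 CPM in the next lowest mouse, with a ratio of 0.569 that barely exceeded the critical value of 0.568. Cebpb in KO mouse 4 on chow was high, at 152 CPM against 91.2 CPM in the next highest, and the same mouse had the highest acute-phase mean of its group (1.24).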

How the results depend on the processing

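Of 323 log2 fold changes of single factors under other settings, 318 kept their direction and side of the threshold, 3 turned sign, 1 was lost and 1 gained. The sign turned for Onecut1 by diet in control mice with limma voom (-0.12) and with the replicate block (-0.11), and for Hnf4a by genotype on chow with the replicate block (0.020). Foxa2 by diet in KO mice was lost with all 27 mice in 1 fit (-0.29, leaving 0 factors called), and Foxa3 by genotype on chow was gained with DESeq2 (0.34, 1 factor called). DESeq2 called 1401 genes for diet in KO mice, 13 for genotype on chow, 55 on HF/HS diet and 161 over both diets. The fit of all 27 mice called 1 gene for genotype on HF/HS diet. With the longest transcript as length, 7 of 9 ranks held.

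Replicate numbers recur across groups, but nothing says that a number marks a shared litter or day, and of 39 same-numbered pairs 10 had a correlation of deviations above 0.1 (range -0.25 to 0.37). A replicate block gave 774 genes for diet in control mice and kept the call of Foxa2 in KO mice (-0.32, adjusted p = 0.0456, edgeR); it changed no other call of a factor.

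Leaving out 1 mouse gave 0 to 2 factors called and 467 (without KO mouse 2 on chow) to 950 genes for diet in KO mice, 2 to 11 genes for genotype on HF/HS diet (5 without control mouse 7, 11 without KO mouse 5) and 1 (without KO mouse 1 on chow) to 66 (without control mouse 7 on HF/HS diet) over both diets, where 17 of 27 such fits moved the count by over 1.5 times. The log2 fold changes below had ranges that crossed 0. For diet in control mice the ranges were -0.012 to 0.17 for Foxa1, -0.063 to 0.059 for Cebpa, -0.010 to 0.074 for Nr5a2, -0.17 to 0.21 for Onecut1 and -0.13 to 0.014 for Prox1. For diet in KO mice they were -0.031 to 0.050 for Hnf4a, -0.069 to 0.077 for Foxa3 and -0.049 to 0.0060 for Nr5a2. For genotype on chow they were -0.077 to 0.019 for Hnf4a, -0.012 to 0.080 for Cebpa, -0.28 to 0.040 for Cebpb and -0.25 to 0.048 for Prox1. For genotype on HF/HS diet they were -0.10 to 0.022 for Cebpa and -0.39 to 0.13 for Onecut1. The cause was not tested.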
